A study of Mus musculus with 21 samples.

Results

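Spo11, Mei1, Hormad1, Hormad2 and Trip13 act around the formation of meiotic double strand breaks, and their transcripts were followed through the RNA-seq of germ cells from B6 males. They were chosen by symbol, as 5 of the 37620 genes in the deposited table, and each was present once. The RNA came from germ cells enriched by collagenase and trypsin digestion of testes of C57BL/6J (B6) mice at 12 dpp, and all samples carry the suffix wt and share strain and age. There were 4 samples (186wt, 343wt, 444wt and 456wt), described as replicates, with 3 libraries each. There was no second condition, so the comparison that the design allows is between samples of 1 kind. The labels do not say whether the 3 libraries of a sample share 1 RNA preparation or how many animals gave a sample, so the p-values compare these 4 samples and the spread behind them may be technical. Values are FPKM, fragments scaled to the length of the transcript and to the mapped fragments of the library.

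In early meiotic prophase, SPO11, a relative of the catalytic subunit of archaeal topoisomerase VI, cuts both DNA strands together with TOPOVIBL at sites that PRDM9 has marked. Auxiliary proteins on the chromosome axis, among them MEI1, MEI4, REC114 and IHO1, are required for the cuts. HORMAD1 and HORMAD2 carry a HORMA domain, a fold that closes around a short peptide of a partner, and coat the axes of chromosomes that have not yet paired. HORMAD1 is needed for normal break numbers and for pairing, and HORMAD2 for the signalling from unpaired axes. TRIP13 is an ATPase that opens HORMA domains, removes both HORMADs from paired axes and acts on the spindle checkpoint protein MAD2 in dividing cells.

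The genes lie on different chromosomes of NCBI build 37 (mm9), and GENCODE M1, an annotation of the same build, lists all 5 as protein coding. Spo11 (ENSMUSG00000005883) is on chr2:172803201-172819077 on the plus strand with 5 transcripts. Mei1 (ENSMUSG00000068117) is on chr15:81900426-81957244 on the plus strand with 1 transcript of 4130 bases. Hormad1 (ENSMUSG00000028109) is on chr3:95363599-95391593 on the plus strand with 5 transcripts. Hormad2 (ENSMUSG00000020419) is on chr11:4245817-4341108 on the minus strand with 7 transcripts. Trip13 (ENSMUSG00000021569) is on chr13:74049910-74075215 on the minus strand with 1 transcript of 2267 bases. A miRNA gene and 2 U7 snRNA genes lie within Trip13 without touching its exons, and none of the other members overlaps an annotated gene.

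The promoters of both Hormad genes and of Trip13 are shown because Hormad1 and Hormad2 kept the most even ratio of any pair of members between samples, whereas Trip13 followed another order of samples. Each is the RefSeq window of 300 bases (250 before the start site and 50 after it), given in the direction of the gene and found once on its chromosome in build 37, at chr3:95363349-95363648 for Hormad1, chr11:4341036-4341335 for Hormad2 and chr13:74075166-74075465 for Trip13. Capitals mark matches, on either strand, to 4 motifs: CNCCTCAG for STRA8, CACGTG for an E-box, GCGGGA for E2F and, for the MYB consensus, the hexamer CAACGG, the hexamer CAACTG, the hexamer TAACGG and the hexamer TAACTG.
Hormad1: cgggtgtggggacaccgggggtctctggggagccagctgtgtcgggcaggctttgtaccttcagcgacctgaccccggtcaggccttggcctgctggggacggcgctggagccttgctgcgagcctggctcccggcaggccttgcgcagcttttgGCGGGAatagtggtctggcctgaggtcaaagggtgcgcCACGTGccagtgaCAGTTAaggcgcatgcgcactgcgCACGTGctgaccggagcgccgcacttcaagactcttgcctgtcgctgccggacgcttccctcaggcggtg
Hormad2: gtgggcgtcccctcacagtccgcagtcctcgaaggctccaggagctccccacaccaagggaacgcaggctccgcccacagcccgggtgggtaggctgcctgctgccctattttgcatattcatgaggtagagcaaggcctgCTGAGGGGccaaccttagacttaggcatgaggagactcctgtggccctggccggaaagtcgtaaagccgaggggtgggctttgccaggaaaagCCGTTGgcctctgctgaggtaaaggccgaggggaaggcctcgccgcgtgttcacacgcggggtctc
Trip13: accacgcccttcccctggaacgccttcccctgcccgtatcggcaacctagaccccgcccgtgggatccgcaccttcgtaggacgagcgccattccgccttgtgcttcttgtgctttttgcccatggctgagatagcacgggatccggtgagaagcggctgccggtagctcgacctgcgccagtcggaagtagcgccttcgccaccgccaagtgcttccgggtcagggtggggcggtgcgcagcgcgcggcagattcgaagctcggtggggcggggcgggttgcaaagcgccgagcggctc

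The Hormad1 window held 2 E-boxes, which begin 57 and 20 bases before the start site, an E2F motif 95 bases before it and a MYB match 44 bases before it. The Hormad2 window held a STRA8 motif at 109 bases before its start site and a MYB match at 16 bases. The MYB consensus was thus the one motif matched in both windows, by different hexamers (TAACTG in Hormad1 and CAACGG in Hormad2, each on the reverse strand). The Trip13 window held none of the 4. The window for Mei1 held none either. Its RefSeq start site lies 12480 bases inside the gene from the GENCODE start, and the sequence at the GENCODE start was not searched. Among 32851 RefSeq promoters of this length, from 27025 genes, 7.94% held the STRA8 motif, 7.15% the E-box, 19.98% the E2F motif and 28.3% a MYB match. For each member only the first RefSeq entry was searched. No motif overlapped another in these windows, and a match of letters is no measure of binding. Whether a motif goes with a pattern between samples was not tested. Of the 5 members, 4 were found in the promoter table, and Spo11 was not.

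All 5 genes were above 0 in every library. Hormad1 was highest at 43.1 ± 7.69 FPKM (SD, n = 4 samples), above 93.7% of all genes in the table. Trip13 followed at 23.9 ± 3.99 FPKM, above 87.6% of the genes. Mei1 had 11.3 ± 2.88 FPKM and Hormad2 10.003 ± 2.15 FPKM, above 79.3% and 78.1% of the genes. Spo11, the gene of the cutting enzyme, was lowest at 5.47 ± 1.99 FPKM, above 73.0% of the genes. Hormad1 exceeded Trip13, Trip13 exceeded Mei1, and Hormad2 exceeded Spo11 in 4 of 4 samples, each with p = 0.125 in a two-sided exact permutation test by sign flips, which is the smallest p that 4 samples allow. Mei1 and Hormad2 did not differ beyond their spread: Mei1 was higher in 3 of 4 samples, by 0.16 ± 0.21 (SD) on the log2(FPKM + 0.1) scale, with an exact permutation p of 0.375. The sum of the 5 genes was 95.1 FPKM in 186wt, 72.6 in 343wt, 113.9 in 444wt and 93.2 in 456wt, and Hormad1 made up between 44.7% and 49.0% of it.

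Depth was estimated from the steps between low FPKM values as 12.95 to 18.05 M (mega) fragments per library. At that depth Spo11 rests on 59 to 179 fragments per library, a counting error of 7.48% to 13.1%. Hormad2 rests on 60 to 370 fragments, where the wide range comes from transcripts of 583 to 1969 bases, so that either of these may be the member with the fewest. Mei1, Hormad1 and Trip13 rest on 547 to 1131 fragments per library. These intervals cover counting error only. As the FPKM of a gene sum its transcripts, no isoform of Spo11, Hormad1 or Hormad2 can be told apart here.

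**Figure D1:**
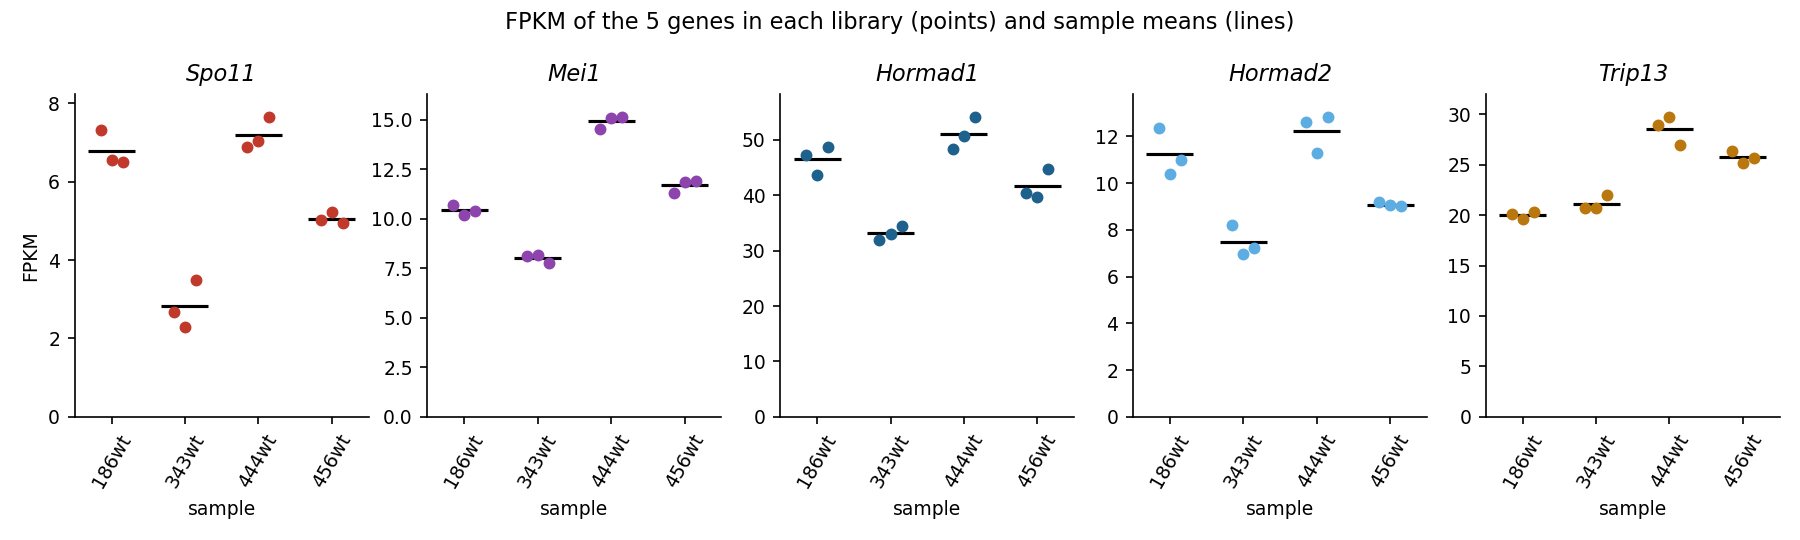
FPKM (y axis, from 0, a scale of its own for each gene) of the 5 genes in the 3 libraries (points) of each of the 4 samples (x axis), with the mean of each sample as a line. Spo11, Mei1, Hormad1 and Hormad2 are lowest in 343wt, whereas Trip13 is low in both 186wt and 343wt, and all 5 sample means are highest in 444wt as deposited.

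Differences between the samples were tested with limma on log2(FPKM + 0.1) over the 20795 genes whose mean reached 0.1 FPKM. All 5 members passed and were tested. The F-test over the 4 samples called 58.2% of all genes at a Benjamini-Hochberg adjusted p under 0.05, so that a call between these samples is the common outcome. It called 5 of the 5 members. The distance between the highest and the lowest sample was 1.34 for Spo11 on the log2 scale, larger than that of 88.0% of the tested genes. It was 0.89 for Mei1, 0.71 for Hormad2, 0.62 for Hormad1 and 0.51 for Trip13, against a median of 0.55 over all genes tested. Trip13, the member with the narrowest range, varied more than 46.6% of the genes.

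Spo11 had 7.32, 6.56 and 6.49 FPKM in the libraries of 186wt, 2.67, 2.30 and 3.50 in 343wt, 6.89, 7.04 and 7.64 in 444wt, and 5.01, 5.23 and 4.94 in 456wt. The libraries of 343wt lay below every other library, those of 456wt between them and the rest, and those of 186wt and 444wt overlapped. The adjusted p of the F-test was 7.65e-06 (limma). In 444wt the level was 2.53-fold that of 343wt (95% interval 2.10 to 3.05, adjusted p = 3.46e-06), and in 343wt it was 0.42-fold that of 186wt (0.35 to 0.51, adjusted p = 2.99e-05). The difference of 0.08 between 444wt and 186wt was not called, with a 95% interval of -0.19 to 0.35 on the log2 scale. The difference of -0.42 between 456wt and 186wt was called (adjusted p = 0.0177), but not without the first library of 186wt (-0.36) or the third of 456wt (-0.40). Without 343wt the range of Spo11 was 0.50, and it was still called (adjusted p = 0.000557). Its low level in 343wt was called against each other sample under every scaling tried.

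Mei1 encodes one of the auxiliary proteins without which breaks do not form. It had 10.70, 10.16 and 10.39 FPKM in 186wt, 8.12, 8.15 and 7.74 in 343wt, 14.53, 15.10 and 15.11 in 444wt, and 11.32, 11.85 and 11.92 in 456wt. No libraries of any 2 samples overlapped, and the spread between samples was 9.82 times that within them, the widest margin of the 5 genes. The adjusted p of the F-test was 5.96e-08 (limma), and Mei1 alone differed in 6 of 6 pairs of samples, the other members in 5 each. The level in 444wt was 1.85-fold that of 343wt (1.74 to 1.98). The difference between 456wt and 186wt, 0.17 on the log2 scale with an adjusted p of 0.00783, was the smallest of the 6 and was lost when libraries were scaled by the median of ratios. Without 343wt the range of Mei1 was 0.51, and without 444wt it was 0.54.

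Hormad1 had 47.29, 43.76 and 48.82 FPKM in 186wt, 31.91, 32.97 and 34.45 in 343wt, 48.39, 50.68 and 54.07 in 444wt, and 40.49, 39.73 and 44.78 in 456wt. The libraries of 343wt lay below all others, those of 186wt overlapped with both 444wt and 456wt, and those of 444wt lay above those of 456wt. The adjusted p of the F-test was 1.34e-05 (limma). The level in 444wt was 1.54-fold that of 343wt (1.41 to 1.68). The difference between 444wt and 186wt was 0.13 on the log2 scale (0.00 to 0.26) and was not called, with an adjusted p of 0.0920. That between 456wt and 186wt was -0.16 with an adjusted p of 0.0415, and this call was lost without the first or the third library of 186wt, the second of 343wt, the second of 444wt, the first or second of 456wt, or all of 343wt, with differences of -0.13 to -0.16. Without 343wt the range of Hormad1 was 0.29 (adjusted p = 0.00805).

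Hormad2 showed the same ranking of samples as Hormad1, at a lower level. It had 12.34, 10.39 and 11.00 FPKM in 186wt, 8.20, 6.95 and 7.23 in 343wt, 12.60, 11.28 and 12.81 in 444wt, and 9.17, 9.06 and 9.01 in 456wt. The libraries of 343wt were lowest, those of 456wt came next without overlap, and those of 186wt and 444wt overlapped at the top. The adjusted p of the F-test was 4.44e-05 (limma). The level in 444wt was 1.63-fold that of 343wt (1.45 to 1.84), and the difference of 0.12 between 444wt and 186wt was not called (-0.05 to 0.29). Without 343wt the range was 0.42 (adjusted p = 0.00235), and the call between 456wt and 343wt (0.28 on the log2 scale) was lost without the second library of 343wt, where it was 0.23.

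Trip13 ordered the samples differently. It had 20.10, 19.61 and 20.27 FPKM in 186wt, 20.69, 20.74 and 22.04 in 343wt, 28.99, 29.70 and 26.93 in 444wt, and 26.33, 25.22 and 25.68 in 456wt. Its libraries in 186wt and 343wt were all below those in 444wt and 456wt, and no libraries of any 2 samples overlapped. The adjusted p of the F-test was 2.08e-06 (limma). The level in 444wt was 1.42-fold that of 186wt (1.34 to 1.52) and 1.35-fold that of 343wt (1.27 to 1.43). The difference of 0.08 between 343wt and 186wt was not called (-0.01 to 0.17 on the log2 scale), although Spo11, Mei1, Hormad1 and Hormad2 were lower in 343wt than in 186wt by 0.38 to 1.26. Relative to the general germ cell genes it was called at 0.21 (adjusted p = 0.00603, limma). Among those genes Tex101 fell most, from 297.6 FPKM in 186wt to 170.9 in 343wt. How far the 0.21 rests on Tex101 was not tested. Relative to the axis and strand exchange genes it was called at 0.41 (adjusted p = 1.37e-05, limma). Mei1 in the same pair, at -0.05, was no longer called with the second list. The difference of -0.15 between 456wt and 444wt (adjusted p = 0.0199) was lost without the first or second library of 444wt or the second or the third of 456wt, with values of -0.12 to -0.15.

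**Figure D2:**
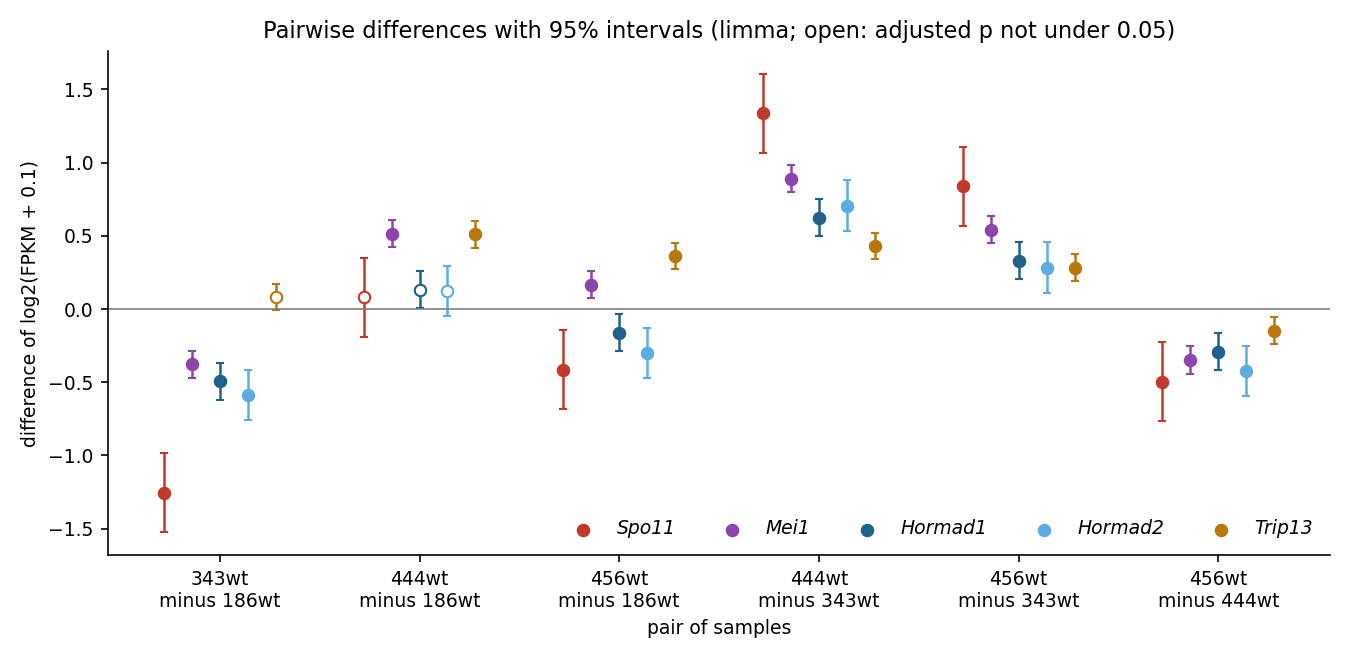
Differences of log2(FPKM + 0.1) (y axis) for the 6 pairs of samples (x axis), with 95% intervals from limma, for the 5 genes. Filled points have an adjusted p under 0.05 and open points do not. As deposited, the 5 genes are all above 0 for 444wt minus 343wt, from 0.43 to 1.34. They divide in sign for 343wt minus 186wt and 456wt minus 186wt. Values relative to gene lists are not plotted. Relative to axis and strand exchange genes 3 of the 5 are below 0 for 444wt minus 343wt, with only Trip13 called.

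Of the 30 tests of a member in a pair of samples, 26 were called. Of all tested genes, 20.4% were called in either direction in 343wt against 186wt, 42.4% in 444wt against 186wt, 41.4% in 456wt against 186wt, 47.9% in 444wt against 343wt, 41.7% in 456wt against 343wt and 28.2% in 456wt against 444wt. In 343wt against 186wt, 4 of the 5 members were lower, where 10.5% of all tested genes were called lower, and the members had a median difference of -0.49 against -0.02 over all genes. In 444wt against 186wt, 2 members (Mei1 and Trip13) were higher, where 26.1% of all genes were. Neither call held relative to the general germ cell genes (0.04 for Mei1 and 0.03 for Trip13) or to the axis and strand exchange genes (0.11 for each), the list scalings described further on. In 456wt against 186wt, Mei1 and Trip13 were higher, where 25.9% of all genes were called higher, and Spo11, Hormad1 and Hormad2 were lower, where 15.5% were called lower. Scaling to general germ cell genes turned the direction of Mei1 in that pair.

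In 444wt against 343wt all 5 were higher, where 30.4% of the genes were. That direction turned for Trip13 relative to general germ cell genes, and the turned difference was called. It also turned for Hormad1, Hormad2 and Trip13 relative to axis and strand exchange genes, where of these only Trip13 was called. The median difference was 0.71 for the members and 0.14 for all genes in this pair, 0.05 for all genes when libraries were scaled by the median of ratios. In 456wt against 343wt all 5 were higher, where 27.6% of the genes were. Hormad1, Hormad2 and Trip13 turned relative to general germ cell genes, and of these only Trip13 was called. In 456wt against 444wt all 5 were lower, where 13.1% of the genes were. All 5 turned relative to axis and strand exchange genes, but Spo11 and Hormad2 were then not called. Pairs that share a sample are not independent of each other.

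The balance between the genes was compared as ratios of FPKM within a sample. Hormad1 to Hormad2 was the most even of the 10 pairs, at 4.15 in 186wt, 4.44 in 343wt, 4.17 in 444wt and 4.59 in 456wt, a coefficient of variation of 4.92%. Single libraries ranged from 3.83 to 4.97, with overlap between all 4 samples. Trip13 to Spo11 was the most uneven, at 2.94 in 186wt, 7.49 in 343wt, 3.97 in 444wt and 5.09 in 456wt, a coefficient of variation of 40.1%. Hormad1 to Spo11 was 6.87 in 186wt, 11.7 in 343wt, 7.10 in 444wt and 8.23 in 456wt, so that transcripts of the axis protein exceeded those of the cutting enzyme most in 343wt. Over the 12 libraries, which come from 4 samples and share their depth and scaling, Pearson's r on the log2 scale was 0.94 between Spo11 and Hormad1, 0.92 between Spo11 and Hormad2 and 0.92 between Hormad1 and Hormad2. It was 0.38, 0.46 and 0.35 between Trip13 and these 3 genes, while Mei1 had an r of 0.80 with Trip13 and of 0.80 to 0.86 with the others.

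Other genes around break formation were read from a list of 7, called the break machinery here. Of these, 6 were in the table and Ankrd31 was not analysed here. The name is loose, as the list also holds Prdm9, which marks the sites, and Zcwpw1. The F-test called 6 of the 6, where it called 58.2% of all tested genes. Zcwpw1, a reader of the histone marks that PRDM9 makes, was highest at 80.6 ± 20.3 FPKM (SD, n = 4). Rec114 (listed as 2410076I21Rik) had 14.9 ± 3.62 FPKM, Prdm9 13.2 ± 1.24 FPKM, and Iho1 (listed as Ccdc36), which binds HORMAD1 on the axis, 13.2 ± 3.04 FPKM. Mei4 had 3.38 ± 0.990 FPKM and Top6bl (listed as Gm960), which encodes TOPOVIBL, 3.25 ± 0.889 FPKM. Spo11 and Top6bl, whose products make up the cutting complex, were thus, with Mei4, the 3 lowest of these 11 genes.

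Top6bl showed an order of samples like that of Spo11, with 3.70 FPKM in 186wt, 2.32 in 343wt, 4.26 in 444wt and 2.71 in 456wt. It was lower in 343wt than in 186wt by 0.64 (adjusted p = 0.00159, limma) and higher in 444wt than in 343wt by 0.85 (adjusted p = 5.58e-05). The direction of both held relative to the general germ cell genes, at -0.52 (adjusted p = 0.00542) and 0.24 (adjusted p = 0.0950, not called). Mei4 and Rec114 were instead, like Trip13, low in both 186wt and 343wt. Mei4 had 2.56 FPKM in 186wt, 2.50 in 343wt, 4.42 in 444wt and 4.02 in 456wt, and Rec114 had 10.8, 13.0, 18.7 and 17.0 FPKM in the same order. Rec114 was higher in 343wt than in 186wt by 0.27 (adjusted p = 0.0190), and for Mei4 that difference was 0.00 (95% interval -0.37 to 0.38). Relative to the general germ cell genes Mei4 was called in no pair, with 0.33 in 444wt against 186wt and 0.20 against 343wt. Rec114 was then 0.31 in 444wt against 186wt, still called, and turned to -0.08 in 444wt against 343wt, not called. Iho1 and Zcwpw1 stood out in 444wt, where Iho1 had 17.5 FPKM against 10.3 to 12.5 in the other samples and Zcwpw1 110.0 against 63.9 to 76.7. Relative to the general germ cell genes the difference between 444wt and 186wt was 0.02 for Iho1, not called, and 0.14 for Zcwpw1. As deposited Prdm9 varied least, from 12.0 to 14.9 FPKM, a range of 0.31 on the log2 scale, but relative to either list Iho1 and Zcwpw1 varied less.

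**Figure D3:**
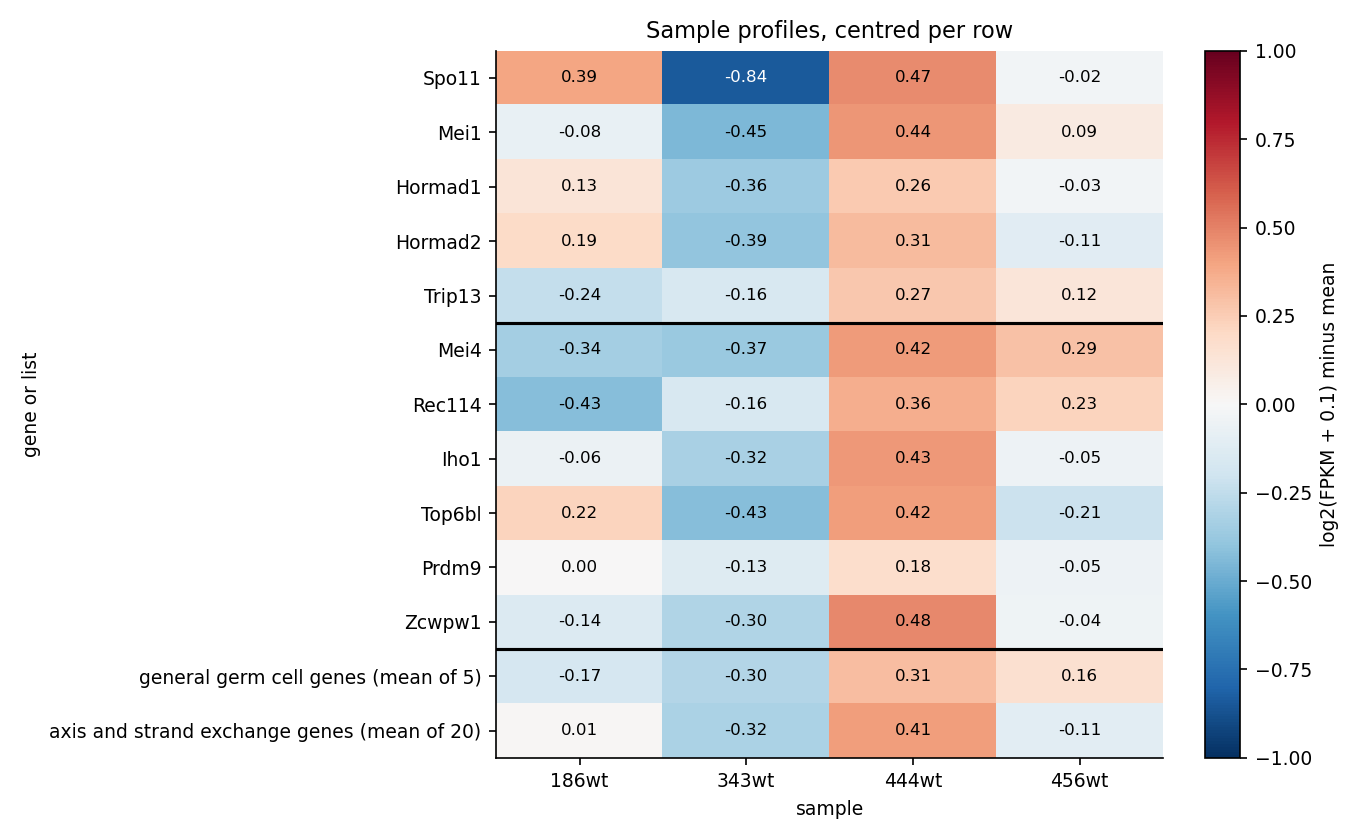
Sample profiles of the 5 members (top), the 6 other break machinery genes (middle) and 2 lists (bottom). Each cell gives log2(FPKM + 0.1) of a sample (x axis) minus the mean of the row over the 4 samples, red where higher and blue where lower. Spo11 in 343wt is the lowest cell at -0.84, and Mei1, Trip13, Mei4, Rec114 and the general germ cell genes are below 0 in 186wt and 343wt and above 0 in the other 2 samples.

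Among 5 other HORMA domain genes and partners of TRIP13, the F-test called 4, where it called 58.2% of all tested genes. Mad2l1, which encodes the spindle checkpoint protein MAD2, was highest at 36.7 ± 5.97 FPKM and had 30.4 FPKM in 186wt, 32.8 in 343wt, 42.5 in 444wt and 41.0 in 456wt, as for Trip13 low in the same 2 samples. Relative to the general germ cell genes its difference between 444wt and 343wt turned, to -0.23. Atg101 had 30.3 ± 1.43 FPKM and, with Atg13, encodes HORMA proteins of autophagy. Mad2l2 had 17.0 ± 2.997 FPKM. Mad2l1bp, the adaptor that brings MAD2 to TRIP13, was lowest at 5.83 ± 0.885 FPKM and ran the other way, with 6.40 FPKM in 186wt, 6.58 in 343wt, 4.63 in 444wt and 5.71 in 456wt.

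Of 11 axis and synaptonemal complex genes the F-test called 11, where it called 58.2% of all tested genes. Their median range was 0.72 on the log2 scale against 0.71 for the members. Stag3 (92.9 FPKM) and Syce2 (77.9 FPKM) were highest, and Rad21l (6.70 FPKM) and Rec8 (20.6 FPKM), which encode meiotic kleisins of cohesin, lowest. In 444wt against 343wt 11 of 11 were called higher, where 30.4% of all tested genes were. In 343wt against 186wt 9 were called lower, where 10.5% of all tested genes were. Of 9 strand exchange genes all 9 were called by the F-test and all 9 were higher in 444wt than in 343wt, beside the same shares of all genes. Dmc1, the meiotic recombinase that acts on the broken ends, had 20.1 FPKM, and Meiob (6.26 FPKM, listed as 4930528F23Rik) and Mcmdc2 (listed as 6030422M02Rik, 4.36 FPKM) were lowest. Of 8 checkpoint genes the F-test called 8, and 7 were higher in 444wt than in 343wt, again beside the same shares. Topbp1 (39.9 FPKM) and Atr (36.4 FPKM) were highest, and Chek2 (6.45 FPKM) and Brca1 (17.6 FPKM) lowest. These directions are for values as deposited. The median difference between 444wt and 343wt was 0.72 for the axis and synaptonemal list, 0.71 for the strand exchange list and 0.51 for the checkpoint list, and relative to the general germ cell genes it was 0.11, 0.11 and -0.10.

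The genes whose pattern was most like that of each member were taken by Pearson's r over the 12 libraries, among 14347 genes whose mean reached 1 FPKM. For Spo11 they were Sdk1 (r = 0.98), Gm364 (0.97) and Prosapip1 (0.97). For Mei1 they were Nol8 (0.99), Ncapg2 (0.99) and the synaptonemal gene Syce1 (0.99). Ncapg (0.97), Cd209c (0.96) and Gm5465 (0.96) were nearest to Hormad1, and 1700001L05Rik, Gm13989 and Zfp541 (each 0.97) to Hormad2. Nup43, Rcor2 and Camk2n1 (each 0.99) were nearest to Trip13. These neighbours depend on the measure, since by r over the 4 sample means the 3 nearest genes of each member were all others, and by Spearman's rho over the libraries 1 of the 15, for Mei1, was kept.

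In such bulk samples fewer cells of a type and less RNA per cell cannot be told apart. Marker genes of other cells moved between the samples too. Sertoli cell markers (9 of 10 measured, led by Clu at 1844 FPKM) summed to 4373 FPKM in 186wt, 4504 in 343wt, 2526 in 444wt and 2705 in 456wt. These are high in the same 2 samples in which Trip13, Mei4, Rec114 and Mad2l1 were low as deposited. Leydig cell markers (6, led by Hsd3b1) summed to 56.5, 110.5, 16.1 and 60.9 FPKM in that order, highest in 343wt and lowest in 444wt. Macrophage markers (5, led by Lyz2) summed to 10.6, 25.5, 6.04 and 20.4 FPKM, endothelial markers (5, led by Cdh5) to 18.6, 23.1, 15.8 and 34.7, peritubular myoid markers (5, led by Acta2) to 532.6, 253.3, 669.8 and 1112, and red blood cell markers (4, led by Hbb-b1) to 21.5, 58.5, 66.7 and 124.3.

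Among germ cell lists, 5 general germ cell genes (led by Tex101) summed to 644.1 FPKM in 186wt, 522.4 in 343wt, 800.3 in 444wt and 750.6 in 456wt. The low sum in 343wt was carried mostly by Tex101, with 297.6, 170.9, 272.2 and 314.0 FPKM in that order. Dazl was also lowest in 343wt, at 162.65 FPKM against 171.1 in 186wt. Ddx4 (70.6 FPKM), Dnd1 (17.0 FPKM) and Mael (87.8 FPKM) were lowest in 186wt. Spermatogonial genes (12, led by Stra8) summed to 307.5, 333.4, 493.3 and 421.4, which places 186wt and 343wt below the others as for Trip13. Id4, lowest in 444wt at 6.42 FPKM, and Nanos2, highest in 343wt at 1.00 FPKM, departed from this. The other genes of the list followed it. Genes of pachytene cells (8, led by Hspa2) summed to 95.9, 75.8, 83.0 and 104.2 FPKM, while their median was 6.19, 6.53, 3.03 and 8.36 FPKM, lowest in 444wt. Spermatid genes (6, led by Tnp1) did not exceed 3.45 FPKM in sum in any library, and Prm2 was listed at 0 in all 12. The label names the cells as spermatocytes, and genes of early meiosis were present in every library, with those of supporting cells beside them. The part of the cell mixture in the differences between the members was not tested.

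How much of a difference the members share with other germ cell genes was read by taking each library relative to the mean log2 value of a list. Relative to the 5 general germ cell genes, the F-test called 64.6% of all genes and 5 of the 5 members. The range between samples was then 0.21 for Trip13 and 0.29 for Mei1, compared with 0.51 and 0.89 as deposited. It was 0.49 for Hormad1, 0.63 for Hormad2 and 1.13 for Spo11. On this scale Trip13 was 4.50 in 186wt, 4.71 in 343wt, 4.53 in 444wt and 4.53 in 456wt, and its highest sample was 343wt. How far that depends on Tex101, a gene of the list that was lowest in 343wt, was not tested. Hormad1 was 5.72, 5.35, 5.37 and 5.22 and Hormad2 3.67, 3.21, 3.32 and 3.04 in the same order, so that 186wt was highest for both. Spo11 was 2.95, 1.82, 2.56 and 2.21, and 343wt was called lower than 186wt, 444wt and 456wt, pairs in which 30.6%, 58.6% and 53.2% of all genes were called in either direction.

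Relative to the 20 axis and strand exchange genes, the F-test called 70.4% of all genes and again 5 of the 5 members. The range was 0.27 for Hormad1 (adjusted p = 0.00211, limma), 0.28 for Hormad2 (adjusted p = 0.0165) and 0.33 for Mei1, below the values as deposited. It was 0.48 for Trip13 and 0.93 for Spo11. Spo11 was 2.77 in 186wt, 1.85 in 343wt, 2.45 in 444wt and 2.47 in 456wt, and 343wt was again called lower than 186wt, 444wt and 456wt, pairs in which 51%, 64.3% and 39.3% of all genes were called. Trip13 was 4.32, 4.73, 4.42 and 4.80 in that order. These scalings also moved the median of all genes, in 444wt against 343wt from 0.14 to -0.46 with the general germ cell genes and to -0.60 with the axis and strand exchange genes, so the values are differences relative to the list and not levels. Spo11 was thus the member with the widest range on each of the 3 scales. A low level in 343wt was not particular to Spo11. As deposited, the strand exchange gene Meiob had 8.07 FPKM in 186wt, 3.24 in 343wt, 9.78 in 444wt and 3.95 in 456wt. Its range of 1.57 was wider than that of Spo11, and it was not compared on the scales relative to the lists.

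**Figure D4:**
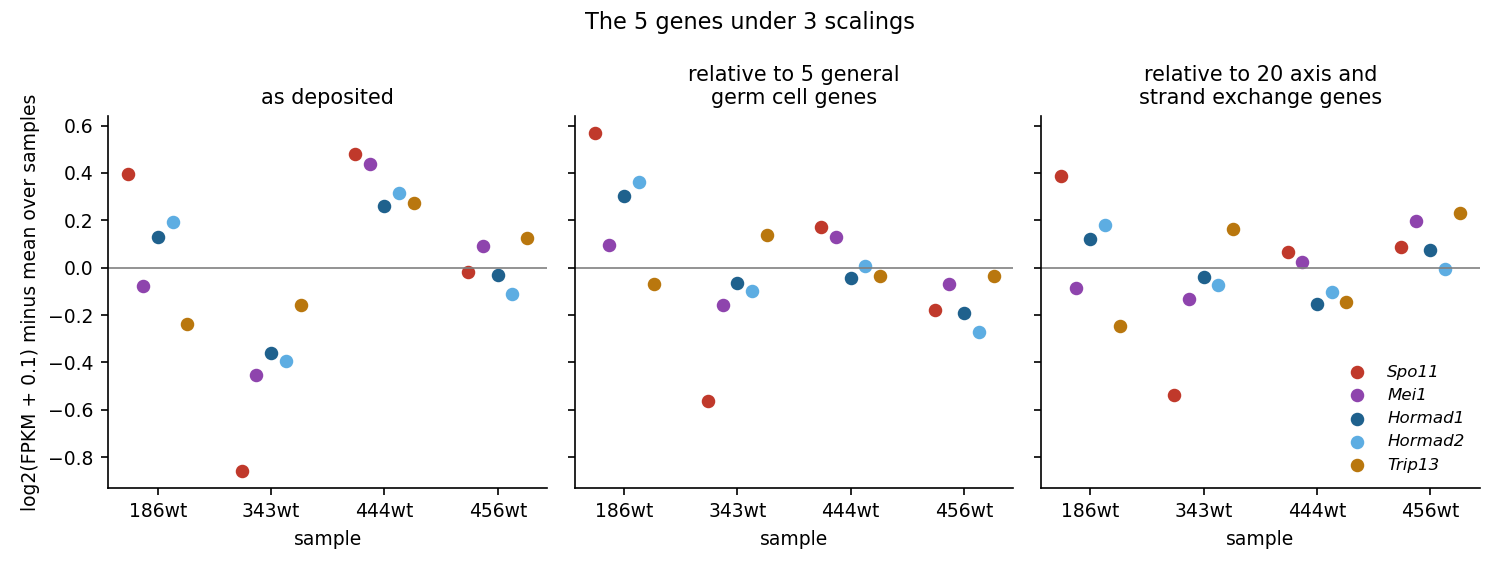
The 5 genes in the 4 samples (x axis) as log2(FPKM + 0.1) minus the mean of the gene over the samples (y axis), as deposited and relative to 2 lists of germ cell genes. Spo11 in 343wt stays the lowest point in each panel, whereas Trip13 moves from below 0 to above 0 in 343wt once values are relative to either list.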

How the data were processed

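RNA was measured in 12 libraries of B6 germ cells at 12 dpp. The deposited FPKM were made by the authors with RSEM 1.2.8 (fragment length 280 ± 50 bp) from 100-bp paired reads, placed on the transcripts of NCBI build 37 by BowTie 0.12.9. Reads with 2 or more mismatches had been dropped. FPKM are rounded to 2 decimals, and no strand setting is given in the sources used here. The other 9 samples of the series were not analysed here.

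Libraries of a sample were averaged, and means ± SD are over 4 samples. Tests used limma 3.58.1 in R 4.3.3 (lmFit, eBayes with trend) on log2(FPKM + 0.1) over genes whose mean reached 0.1 FPKM, with Benjamini-Hochberg adjustment over all of them, and no count test. Other values came from Python 3.11.15 with numpy 2.4.6 and pandas 2.3.3. Promoters came from RefSeq (GRCm38.p6) and were matched exactly to build 37.

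Depth was estimated from steps between low values in genes with 1 transcript of 300 to 900 bases. Between 63.4% and 68.2% of these values came out whole within 0.006 FPKM, too few to recover counts. On 3 simulated libraries the error was at most 0.122%. Those were drawn as whole counts of 1 transcript per gene, so this error does not measure that of the real depths. In simulated data with 200 of 20795 genes changed by 1 on the log2 scale in 1 sample, limma recovered 57.5%, and 7.26% of calls were false. In the real data 58.2% of the genes were called, so these rates hold for the simulated setting only.

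The members and lists were chosen with earlier results of these data known. Genes were named by rule: the members, the other break machinery, the 2 highest and 2 lowest of each pathway list, the leading gene of each marker list and the 3 nearest in pattern. A gene that this rule covers is not reported here. The alternatives were other pseudocounts, filters and scalings, a block, no trend, and samples or libraries left out. Rhox5 was not matched.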

Additional observations from a re-analysis of the deposited data

Results flagged for a closer look

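The ratio of Hormad2 to Spo11 was 2.64 in 343wt, against 1.66 in 186wt, 1.70 in 444wt and 1.79 in 456wt. The gap between 343wt and the nearest other sample took up 0.859 of the whole range, above Dixon's 95% critical value for 4 samples. Its single libraries ranged from 2.07 to 3.07 in 343wt and from 1.58 to 1.83 elsewhere. Spo11 in 343wt rests on as few as 59 to 63 fragments in a library, by its shortest and longest transcript. Of 37 values examined in this way (genes, ratios and summed lists), 1 was beyond the critical value, and chance alone flags about 1 in 20.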

How the results depend on the processing

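Other pseudocounts (0.01 and 1), filters, a common total, the median of ratios and a fit without trend kept all 5 members called between the 4 samples, as did leaving out any library or sample. Among the pairs of samples these settings and the block gave 235 of 240 member values with the same direction and call. Lost calls were Mei1 in 456wt against 186wt and Hormad2 in 456wt against 343wt (median of ratios) and Hormad1 in 456wt against 186wt (no filter, no trend). Leaving out libraries or samples ended the call of a member in 14 of 420 cases, and the number of members called in 456wt against 186wt lay between 3 (without the first library of 186wt) and 5. Scaling each library to a common total (TPM) gave mean levels of 89.6 for Hormad1, 49.6 for Trip13, 23.4 for Mei1, 20.8 for Hormad2 and 11.4 for Spo11, in the same order.

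Scaling to gene lists changed most. With the general germ cell genes the calls fell to 3 members in 444wt against 343wt, 2 in 456wt against 343wt and 3 in 456wt against 444wt, where 12188, 11056 and 7213 of the 20795 genes were called. Turned differences (log2) in 444wt against 186wt were -0.40 for Spo11, -0.35 for Hormad1 and -0.36 for Hormad2. Mei1 turned to -0.16 in 456wt against 186wt and Trip13 to -0.17 in 444wt against 343wt. In 456wt against 343wt Hormad1 had -0.13 and Hormad2 -0.17, neither called, and Trip13 had -0.17, which was called. In 456wt against 444wt Trip13 had 1.05e-05, not called. With the axis and strand exchange genes the calls were 2 members in 456wt against 186wt, 3 in 444wt against 343wt, 2 in 456wt against 343wt and 3 in 456wt against 444wt, where 9666, 13378, 8178 and 13866 genes were called (5854 as deposited in the last pair), and 10603 genes were called in 343wt against 186wt (4251 as deposited). In 444wt against 186wt Spo11 had -0.32, Hormad1 -0.27 and Hormad2 -0.28. In 444wt against 343wt Hormad1 had -0.11 and Hormad2 -0.027, neither called, and Trip13 had -0.30, which was called. In 456wt against 444wt Spo11 had 0.023, Mei1 0.17, Hormad1 0.23, Hormad2 0.10 and Trip13 0.37, of which those of Spo11 and Hormad2 were not called. These shifts follow from the construction, which subtracts the list.

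The share of called genes that were higher moved with the median of ratios from 61.6% to 49.1% in 444wt against 186wt, from 62.6% to 52.0% in 456wt against 186wt, from 63.5% to 50.3% in 444wt against 343wt and from 66.1% to 52.7% in 456wt against 343wt. Over 8202 genes, libraries of different samples with the same suffix had correlations of -0.24 to 0.21 in their deviations (different suffixes -0.34 to 0.45). That does not settle it for single genes. With the suffix as a block the adjusted p of the F-test (limma) fell to 2.74e-06 for Hormad1 and 2.71e-05 for Hormad2. It rose for Spo11, Mei1 and Trip13. With the suffix as a replicate block 11774 genes differed between the samples, compared with 12107, and the one member call that changed was Hormad1 in 444wt against 186wt (0.13), which passed. Depth limits Spo11 and Hormad2 more than the other members.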
